A study of Saccharomyces cerevisiae with 5 samples.

Results

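The genes described are the 9 cyclins that drive the budding yeast cell cycle through the kinase Cdc28, together with SIC1, an inhibitor of that kinase. They are the G1 cyclins CLN1, CLN2 and CLN3, the B-type cyclins CLB1 to CLB6, and SIC1, and they were taken by symbol from both deposited expression tables. All 10 were found among the 5886 genes listed, and all 10 passed the filter on low values. The libraries were RNA sequencing libraries of Saccharomyces cerevisiae, 3 from a SUL1 knockout and 2 from the wild type, each labelled as a biological replicate. SUL1 encodes a high-affinity sulfate transporter, and the series asks how cells without it come to divide more times before they die. Both strains were cultured at 30 °C in rich YPD medium (2% glucose, 2% peptone and 1% yeast extract). The knockout libraries are labelled as BY4741, a haploid strain of the S288C background, harvested at an optical density at 600 nm of 0.6. The wild-type libraries are named WT4741 and carry no optical density, so equal culture density cannot be shown from the labels. How the deletion was made, and from how many clones, is not given in the sources used here, and a further wild-type replicate mentioned in the design text was not analysed here. The cultures were not described as synchronised, so each value is an average over cells in all phases, in which fewer cells of a phase and less RNA per cell cannot be told apart.

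In budding yeast, CLN3 acts first. Cln3 with Cdc28 releases the transcription factor SBF from the repressor Whi5. SBF and a related factor, MBF, switch on CLN1, CLN2, CLB5 and CLB6 late in G1. Cln1 and Cln2 start budding and mark the inhibitor Sic1 for destruction, which frees Clb5 and Clb6 to start DNA replication. Clb3 and Clb4 serve in S phase and early mitosis, Clb1 and Clb2 drive mitosis, and SIC1 is transcribed again as cells leave mitosis. Nutrient signals, among them protein kinase A, meet this circuit mainly at the G1 cyclins.

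Sequences recognised by SBF and MBF were looked for in the 1000 bases before each start codon, on both strands, because CLN1, CLN2, CLB5 and CLB6 are the textbook targets of these factors. The searched letters were CACGAAA (SCB), CGCGAAA (a variant of it) and ACGCGT (MCB, the same on both strands). The windows of CLN1, CLN2 and CLB6 that carry them are shown with the matches in capitals, read 5′ to 3′ on the strand of the gene from the RefSeq R64 genome. They span chrXIII:661838-662057 (forward strand), chrXVI:67135-67234 (reverse strand) and chrVII:706862-706921 (reverse strand).
CLN1: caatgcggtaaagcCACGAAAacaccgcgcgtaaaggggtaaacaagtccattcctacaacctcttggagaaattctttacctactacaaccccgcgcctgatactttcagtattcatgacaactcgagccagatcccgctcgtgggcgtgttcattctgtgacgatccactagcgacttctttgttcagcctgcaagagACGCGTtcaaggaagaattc
CLN2: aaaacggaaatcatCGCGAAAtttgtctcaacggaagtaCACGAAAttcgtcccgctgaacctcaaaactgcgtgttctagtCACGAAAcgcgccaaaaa
CLB6: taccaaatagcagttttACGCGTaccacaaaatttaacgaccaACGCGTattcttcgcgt
CLN1 holds an SCB at 792 and an MCB at 606 bases before its start codon. CLN2 holds SCBs at 581 and 538 and the variant at 606, with a further SCB at 999. CLB6 holds MCBs at 403 and 377, and CLB5 has none of these letters in its window. Of the other genes, CLB2 holds an MCB at 939, CLB4 the variant at 698 and SIC1 an SCB at 7. The match of CLB4 lies beyond the 275 bases between it and the neighbouring gene PNP1, and that of SIC1 lies directly before the start codon. For CLB3, CLB4, CLB5, CLB6 and SIC1 the fixed window reaches past the nearest annotated upstream gene boundary. No match overlapped another. Such matches are common, since of 5878 genes with a full window 12.8% hold the SCB, 8.01% the variant and 8.49% the MCB, and a match is a description and not a shown binding site.

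SUL1 itself followed the genotype labels, with 0 FPKM in all 3 knockout libraries and 8.28 and 9.78 FPKM in wild-type replicates 1 and 2. FPKM counts the sequenced fragments of a gene relative to its length and to the total of its library. The depth estimated for the knockout libraries was 24550000 to 25050000 fragments, and that for the wild-type libraries 22400000 to 24850000. Among marker genes of mating type a, that of BY4741, the pheromone receptor STE2 had 115 to 145 FPKM and AGA2 had 95.27 to 131.13. The other a genes analysed were lower, STE6 at 11.84 to 19.23 FPKM and BAR1 at 8.60 to 16.95, which overlapped the alpha genes. The alpha receptor STE3 had 8.38 to 11.76 FPKM and SAG1, also of mating type alpha, 8.26 to 11.60. The pheromone genes MFA1, MFA2, MFALPHA1 and MFALPHA2 were not analysed here. Calls were rare over all 5712 genes tested, with 15 at an adjusted p under 0.05 (limma), or 0.263%, 11 of them higher and 4 lower in the mutant. The 6 stationary-phase markers summed to 105 to 161 FPKM in knockout and 83.7 to 84.4 in wild-type libraries, with none at 0. They did not move together. SPG1, SPG4 and FMP45 were higher in every knockout library than in both wild-type ones, and SPG5 overlapped. In knockout replicate 2, SNZ1 (11.01 FPKM) and SNO1 (9.88 FPKM) were below both wild-type libraries, though above them in the other knockout libraries. The part of these markers in the values of the cyclins was not tested.

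None of the 10 genes passed the test for a difference between the SUL1 knockout and the wild type (limma, Benjamini-Hochberg over all genes tested). None had an unadjusted p under 0.05 either, against 18.6% of all genes tested. Their adjusted p-values ran from 0.397 to 0.969. Log2 fold changes were above 0 for 6 of the 10, against 37.4% of all genes tested, with a median of 0.035 beside -0.069 over all genes tested. Knockout and wild-type values were fully apart for 1 of the 10, CLB4, against 41.1% of all genes tested. On log2(FPKM + 1) the widest 95% interval reached 0.71, for CLB6, which is 1.64-fold in FPKM + 1. On that scale a larger change lies outside the intervals of all 10 genes, whereas smaller changes remain inside some of them. The limit is not one of FPKM itself, since the added 1 shrinks changes of low genes. With 0.1 added instead, the log2 fold change of CLB6 was 0.30 in place of 0.26.

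**Figure D1:**
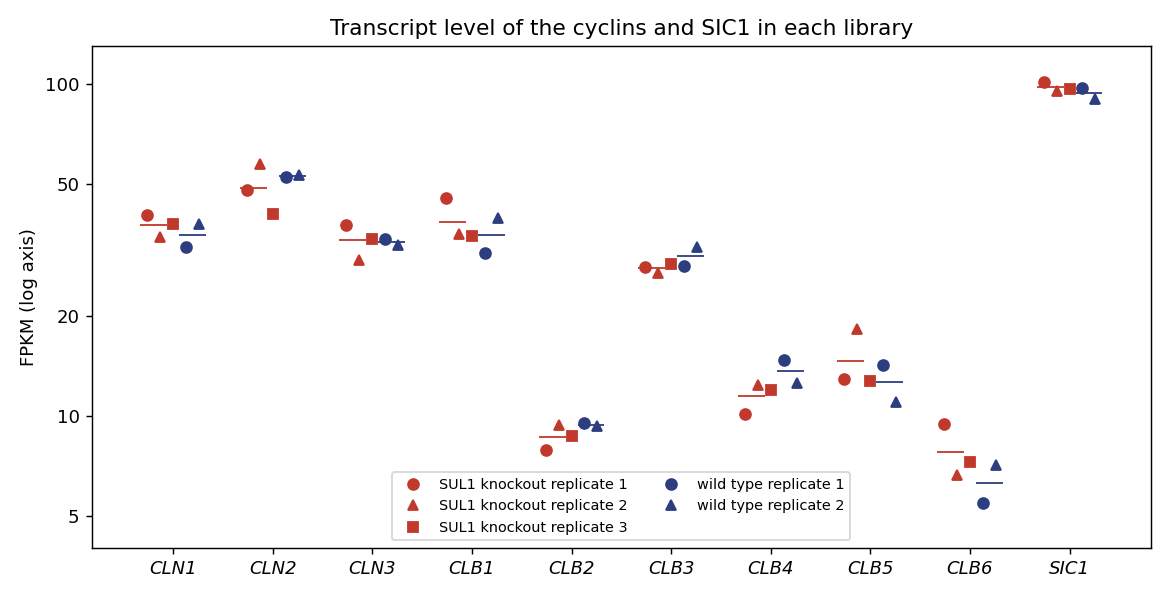
FPKM (log axis) of each cyclin and of SIC1 in the 3 SUL1 knockout libraries (red) and the 2 wild-type libraries (blue), with short lines at the group means. Red and blue overlap for each gene except CLB4, with SIC1 at 90.13 to 101.2 FPKM at the top and CLB6 at 5.47 to 9.41 at the bottom.

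The G1 cyclins were read at similar levels in both strains. CLN3 (YAL040C, chrI:65778-67520, reverse strand), the cyclin that starts the cycle in response to growth, had 37.63, 29.42 and 34.08 FPKM in knockout replicates 1, 2 and 3 and 34.02 and 32.58 in wild-type replicates 1 and 2. Both wild-type values lay inside the range of the knockout. The knockout mean was 33.7 ± 4.12 FPKM (SD, n = 3), against 33.3 ± 1.02 for wild-type cells (SD, n = 2). The log2 fold change was 0.011 ± 0.12 (SE, limma, adjusted p = 0.969), with a 95% interval of -0.27 to 0.30. The sign of this value changed with the scaling of the libraries and with the libraries kept.

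CLN1 (YMR199W, chrXIII:662644-664284, forward strand) and CLN2 (YPL256C, chrXVI:64977-66614, reverse strand) are the paralogs that commit the cell to division. CLN1 had 40.19, 34.54 and 37.78 FPKM in the knockout and 32.24 and 37.84 in the wild type. The groups overlapped, and the log2 fold change was 0.10 ± 0.11 (SE, limma, adjusted p = 0.649). CLN2, the more abundant of the pair in all 5 libraries, had 47.94, 57.12 and 40.50 FPKM in the knockout and 52.53 and 52.93 in the wild type. Here the knockout libraries spread to both sides of the wild type, and the log2 fold change was -0.13 ± 0.14 (SE, limma, adjusted p = 0.615). Without knockout replicate 2, the highest library, it was -0.25 and still not called (limma, adjusted p = 0.135). It was -0.011 without knockout replicate 3, the lowest library. Summed over CLN1, CLN2 and CLN3, the knockout had 120 ± 6.80 FPKM (SD, n = 3) and the wild type 121 ± 3.22 (SD, n = 2).

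The S-phase cyclins were read at low levels that varied between libraries. CLB5 (YPR120C, chrXVI:773875-775182, reverse strand), the main cyclin of replication, had 12.85, 18.20 and 12.68 FPKM in the knockout and 14.18 and 11.02 in the wild type. Its highest library was knockout replicate 2, which lay 0.48 on the log2 scale above the mean of the other knockout libraries, a gap wider than that of 89.6% of all genes tested. The log2 fold change between the strains was 0.19 ± 0.19 (SE, limma, adjusted p = 0.591), with a 95% interval of -0.26 to 0.63. Leaving out knockout replicate 2 gave 0.027, leaving out wild-type replicate 2 gave 0.019 and leaving out wild-type replicate 1 gave 0.36, and it was not called in any of these. CLB6 (YGR109C, chrVII:705359-706501, reverse strand), its short-lived paralog, had 9.41, 6.63 and 7.26 FPKM in the knockout and 5.47 and 7.09 in the wild type. It had the lowest mean of the 10 genes, its groups overlapped, and the strains differed by 0.26 ± 0.19 on the log2 scale (SE, limma, adjusted p = 0.463). That difference was 0.13 when knockout replicate 1 was left out, and 0.10 or 0.43 when wild-type replicate 1 or 2 was. At the estimated depths these values rest on 136 to 233 fragments of CLB6 per library, for which counting alone gives an error of 8.57% to 6.56%. The coefficient of variation of CLB6 among the knockout libraries was 18.8%, and that of CLB5 was 21.5%.

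CLB3 and CLB4 act between S phase and mitosis. CLB3 (YDL155W, chrIV:176773-178056, forward strand) had 28.12, 26.86 and 28.61 FPKM in the knockout and 28.19 and 32.23 in the wild type. The log2 fold change was -0.11 ± 0.10 (SE, limma, adjusted p = 0.557). CLB4 (YLR210W, chrXII:562008-563390, forward strand) had 10.09, 12.37 and 11.94 FPKM in the knockout and 14.72 and 12.58 in the wild type. Every knockout library was below both wild-type libraries, though knockout replicate 2 and wild-type replicate 2 were close. Its log2 fold change was -0.23 ± 0.14 (SE, limma, adjusted p = 0.397), with a 95% interval of -0.57 to 0.10. It was -0.15, -0.29 or -0.26 when knockout replicate 1, 2 or 3 was dropped. Dropping wild-type replicate 1 or 2 gave -0.13 or -0.34. The 3 genes most like CLB4 by Euclidean distance of centred log2 values over the 5 libraries, among 5046 compared, were LIN1, ERG25 and RPC31, at distances of 0.045, 0.065 and 0.071.

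The mitotic pair differed more between its own members than between strains. CLB1 (YGR108W, chrVII:703636-705051, forward strand) had 45.31, 35.16 and 34.84 FPKM in the knockout and 30.91 and 39.34 in the wild type, with overlapping groups. Its log2 fold change was 0.13 ± 0.16 (SE, limma, adjusted p = 0.663). CLB2 (YPR119W, chrXVI:771653-773128, forward strand), whose product is the main mitotic cyclin, had 7.87, 9.37 and 8.69 FPKM in the knockout and 9.47 and 9.32 in the wild type. The highest knockout library lay between the wild-type libraries, and the log2 fold change was -0.11 ± 0.14 (SE, limma, adjusted p = 0.665). CLB1 stood above CLB2 in all 5 libraries, by 3.75- to 5.76-fold in knockout and 3.26- to 4.22-fold in wild-type libraries. For the sum of the 6 B-type cyclins the knockout had 109 ± 4.82 FPKM (SD, n = 3) and the wild type 107 ± 6.11 (SD, n = 2).

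SIC1 (YLR079W, chrXII:286820-287674, forward strand), the inhibitor of Clb-bound Cdc28, was the most abundant of the 10 transcripts in every library and had the smallest standard error. It had 101.2, 95.24 and 96.26 FPKM in the knockout and 97.01 and 90.13 in the wild type. The groups overlapped, and the log2 fold change was 0.060 ± 0.087 (SE, limma, adjusted p = 0.715), with a 95% interval of -0.14 to 0.26. With all libraries scaled to the same FPKM sum its sign turned, at -0.031. The level of SIC1 relative to the sum of the 6 B-type cyclins was 0.890, 0.877 and 0.925 in the knockout libraries and 0.942 and 0.808 in the wild type, so the knockout lay within the range of the wild type.

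**Figure D2:**
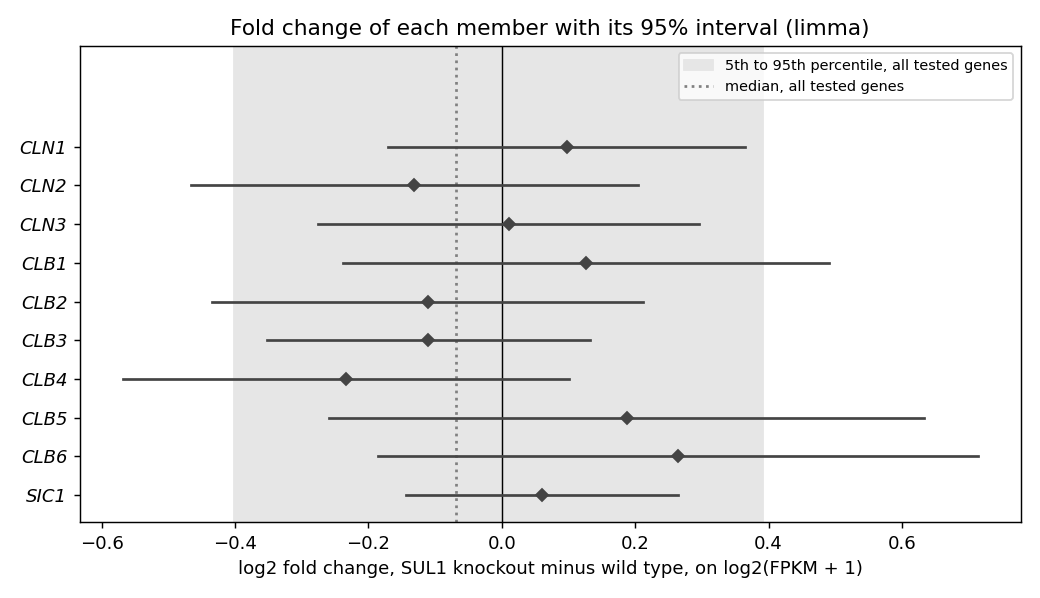
Log2 fold change of each gene, knockout minus wild type, on log2(FPKM + 1), with its 95% interval from limma over 3 and 2 libraries. All 10 intervals include 0, and all 10 points lie inside the grey band, which holds the 5th to 95th percentile of all tested genes (-0.40 to 0.39).

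The order of the levels was nearly the same in both strains. FPKM is per length, so genes can be set side by side, though only approximately, since the gene models hold no untranslated regions. Over all 5 libraries SIC1 (96.0 ± 3.97 FPKM, SD, n = 5) came first and stood clear of CLN2 (50.2 ± 6.32). CLB1 (37.1 ± 5.47), CLN1 (36.5 ± 3.12) and CLN3 (33.5 ± 2.96) followed with overlapping ranges, and CLB3 (28.8 ± 2.02) overlapped CLN3 but stayed below it in each library. A step then separated CLB3 from CLB5 (13.8 ± 2.71) and CLB4 (12.3 ± 1.65), which overlapped and changed places between the strains. CLB2 (8.94 ± 0.67) and CLB6 (7.17 ± 1.43) were lowest and overlapped in the knockout. The highest mean was 13.4 times the lowest. SIC1 was above 70.3% of all genes tested and CLB6 above 7.46%, whose median level was 43.0 FPKM.

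Ratios within a library do not depend on how libraries were scaled, and in each of the 4 paralog pairs the strain means differed by less than the larger SD within a strain. The level of CLN1 relative to CLN2 was 0.838, 0.605 and 0.933 in knockout replicates 1, 2 and 3 and 0.614 and 0.715 in wild-type replicates 1 and 2. That of CLB5 relative to CLB6 was 1.37, 2.75 and 1.75 in the knockout and 2.59 and 1.55 in the wild type. In both pairs knockout replicate 2 and wild-type replicate 1 were next to each other at one end, low for CLN1 to CLN2 and high for CLB5 to CLB6. They were also the lowest libraries for CLB1 to CLB2, at 3.75 and 3.26, and for CLB3 to CLB4, at 2.17 and 1.92. CLN1 and CLN2 have nearly equal coding lengths of 1641 and 1638 bp. Gene by gene, the same libraries were both the highest or both the lowest of the 5 for 4 of the 10 genes, namely CLB2 and CLB5 (highest) and CLN1 and CLB6 (lowest), against 29.5% of all genes tested. This likeness of libraries from different strains was seen after the values and was not tested. The total of the G1 cyclins relative to the total of the B-type cyclins was steadier, at 1.08 to 1.12 in knockout and 1.11 to 1.15 in wild-type libraries.

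**Figure D3:**
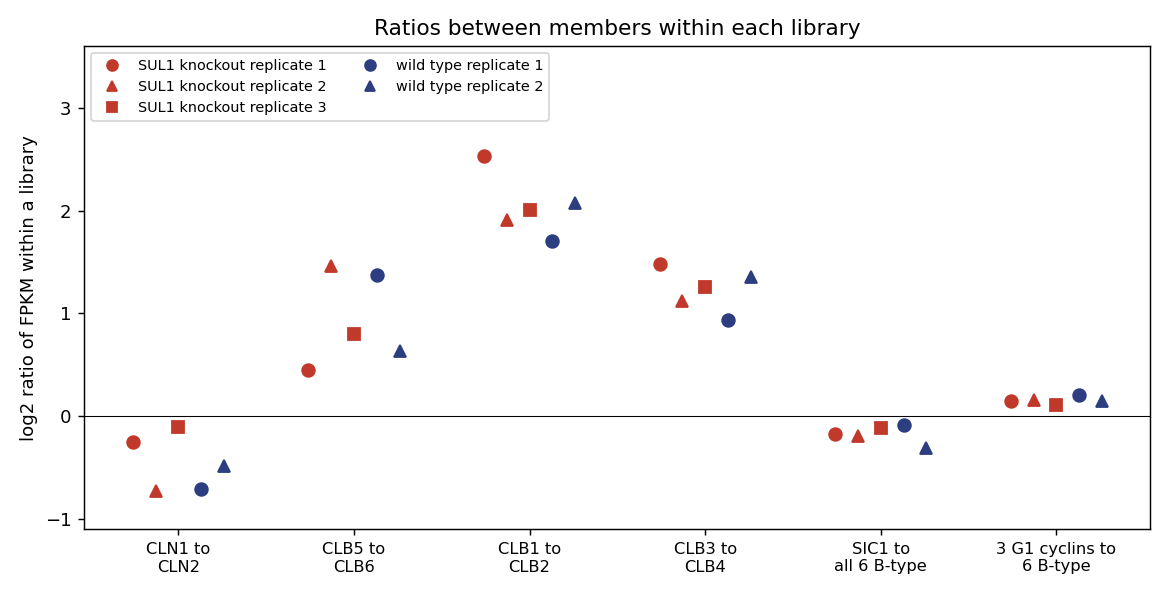
Log2 ratio of FPKM between members within each library (red, SUL1 knockout; blue, wild type; the marker shape is the replicate number). Red and blue overlap in all 6 ratios, and knockout replicate 2 and wild-type replicate 1 sit together at the low end of CLN1 to CLN2 (-0.73 and -0.70) and the high end of CLB5 to CLB6 (1.46 and 1.37).

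Position and sequence bear on how cleanly these genes can be told apart. Each of the 10 has a single coding exon, and none overlaps another annotated gene. CLB1 and CLB6 face each other on chromosome VII with 307 bp between their stop codons, and CLB2 and CLB5 do so on chromosome XVI with 746 bp between them. The gene models hold no untranslated regions and the strand setting of the counting is not given in the sources used here, so reads from the ends of facing transcripts cannot be assigned with certainty. CLB1 and CLB6 both had their highest value in knockout replicate 1 and their lowest in wild-type replicate 1. CLB2 and CLB5 both had their highest values in knockout replicate 2 and wild-type replicate 1. Their lowest values differed, in knockout replicate 1 for CLB2 and in wild-type replicate 2 for CLB5. The coding sequences of the paralogs were 61.0% identical for CLN1 and CLN2, 61.7% for CLB1 and CLB2, 56.6% for CLB3 and CLB4 and 55.0% for CLB5 and CLB6. The longest run that CLB1 and CLB2 share is shown because it bounds how far a read could fit both coding strands without a mismatch. It is 17 bases, at chrVII:704566-704582 and chrXVI:772643-772659.
CLB1/CLB2: GAGACAGACGGTGCATG
The run was also 17 bases for CLN1 and CLN2 and 15 for each of the other pairs of paralogs, and over the 41 remaining pairs of the 10 genes it was at most 23 bases.

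The wider cell-cycle machinery was read from 6 lists of 113 different genes in all, of which none was called (limma, adjusted p under 0.05) and 10 had an unadjusted p under 0.05, or 8.85% against 18.6% of all genes tested. Among all genes tested, 15 were called and 62.6% had a log2 fold change below 0, with a median of -0.069. Of the 113 listed genes 87 were below 0, or 77.0%, with a median of -0.11. Knockout and wild-type values were fully apart for 26 of the 113, or 23.0%, against 41.1% of all genes tested. The absence of calls depended on knockout replicate 2. Without it 24 of the 113 were called, 2 higher and 22 lower. That fit called 896 of all 5712 genes tested, 298 higher and 598 lower, so calls rose over all genes as well. Among those 24 were WHI5, HSL1, MNN1, PLM2, GRR1, NET1, MMR1 and BUD4, for which the FPKM or fold changes given below come from all 5 libraries. The list medians also moved with gene length. With the trend of fold change on length removed, the median of all genes tested was -0.012, and the lists lay between -0.042 and 0.032.

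Genes of G1/S control had a median log2 fold change of -0.091, with 14 of 18 below 0 and none called. WHI5, the repressor that Cln3 inactivates, had 10.79, 12.30 and 9.94 FPKM in the knockout and 15.84 and 16.85 in the wild type. The groups did not overlap, and the log2 fold change of -0.53 ± 0.13 missed the threshold (SE, limma, adjusted p = 0.169). HSL1, a kinase of the morphogenesis checkpoint, had 19.60, 29.44 and 16.92 FPKM in the knockout and 30.51 and 28.54 in the wild type, with knockout replicate 2 between the wild-type values. Targets of SBF and MBF other than the cyclins had a median of -0.11, with 22 of 31 below 0 and none called, and of 0.0063 with the length trend removed. Among those averaging at least 10 FPKM, the largest values were -0.48 ± 0.17 for the mannosyltransferase MNN1 and 0.46 ± 0.24 for PLM2 (SE, limma, adjusted p = 0.230 and 0.335). PLM2, a forkhead-associated protein made in G1, had 17.72, 9.81 and 13.64 FPKM in the knockout and 8.30 and 10.73 in the wild type.

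The degradation machinery that acts on the cyclins and on Sic1 gave no calls either. The SCF ubiquitin ligase, which removes Sic1, Cln1 and Cln2, had 5 of 7 genes below 0 and a median of -0.072, which was -0.0029 when knockout replicate 2 was left out and -0.044 when wild-type replicate 2 was. Its F-box subunit GRR1, which recognises Cln1 and Cln2, had 13.48, 16.78 and 13.40 FPKM in the knockout and 18.52 and 19.14 in wild-type cells (a difference of -0.36 ± 0.13 on the log2 scale, SE, limma, adjusted p = 0.236). RUB1, a ubiquitin-like modifier of the ligase, stood higher in each knockout library than in both wild-type ones, at 0.36 ± 0.11 (SE, limma, adjusted p = 0.201). Genes of the APC/C, which destroys B-type cyclins, and of mitotic exit had a median of -0.12, with 24 of 28 below 0, and of -0.049 when wild-type replicate 1 was left out. NET1, which holds the phosphatase Cdc14 in the nucleolus, had -0.49 ± 0.13 (SE, limma, adjusted p = 0.180), and the APC/C subunit CDC16 had -0.25 ± 0.12 (SE, limma, adjusted p = 0.300).

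The mitotic genes and the cyclins of another kinase were likewise without a call. The list of the cluster transcribed with CLB2 and its transcription factors had 17 of 19 genes below 0 and a median of -0.18, and its groups did not overlap for 2 genes (10.5%, against 41.1% of all genes tested). That median was -0.36 when knockout replicate 2 was left out and -0.33 when wild-type replicate 2 was. It was -0.063 with knockout replicate 3 left out, -0.094 with wild-type replicate 1 left out and -0.042 with the length trend removed. MMR1, which carries mitochondria into the bud, had -0.42 ± 0.15 (SE, limma, adjusted p = 0.226). BUD4, a landmark of the bud neck, had 7.50, 14.40 and 6.72 FPKM in the knockout and 15.20 and 9.96 in the wild type, again with knockout replicate 2 near wild-type replicate 1. The list of the kinase Pho85, its cyclins and its regulator PHO81 had 7 of 12 genes above 0 and a median of 0.049, which turned to -0.0086 when knockout replicate 1 was left out and to -0.042 with equal FPKM sums. Of these PCL7, tied to glycogen storage, had 105.97, 94.84 and 95.13 FPKM in knockout and 82.63 and 76.38 in wild-type libraries (log2 fold change 0.31 ± 0.095 SE, limma, adjusted p = 0.196), and PCL8 had -0.31 ± 0.21 (SE, limma, adjusted p = 0.436).

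**Figure D4:**
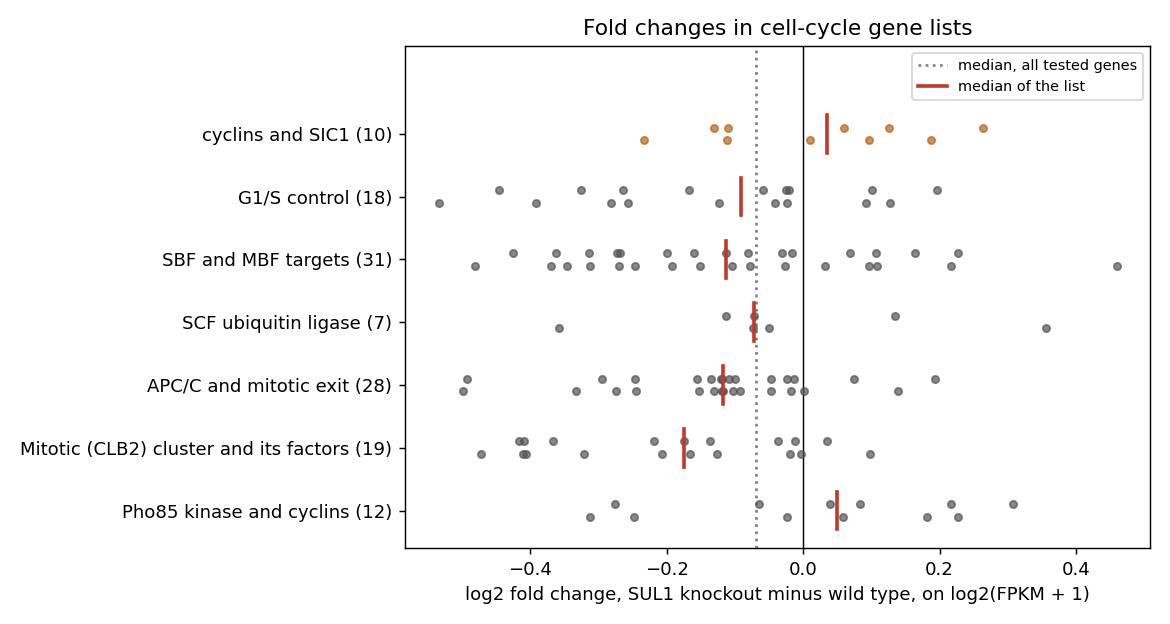
Log2 fold change, knockout minus wild type, of each gene of the cyclin set and of 6 cell-cycle lists (points; tested genes in brackets), with list medians in red and the median of all tested genes dotted. The cyclins and SIC1 spread to both sides of 0 (median 0.035), and the mitotic cluster with its factors has 17 of 19 points below 0 (median -0.18, and -0.36 to -0.063 leaving out 1 library). No point was called.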

How the data were processed

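The authors deposited FPKM per gene and library, per the file headers, in a table for each strain, each column scaled on its own. HISAT2 2.1.0, Bowtie2, RSEM 1.3.1, DESeq2 1.4.5 and build R64 are named, with no role, in the submitters' processing notes. Of 5886 gene identifiers 5883 matched the RefSeq R64 annotation, and 2 symbols turned into dates were restored. The 5712 genes whose values over the 5 libraries averaged 1 FPKM or more were tested on log2(FPKM + 1) with limma 3.58.1 in R 4.3.3 (trended, robust prior; genotype alone), adjusted by Benjamini-Hochberg at 0.05. This scale understates changes of low genes. Where separate cultures are not shown, p-values measure only the spread between libraries. Depth came from the steps that 1 fragment makes in values up to 1.5 FPKM (coding lengths 400 to 1200 bp), taking an effective length 142 bp below the coding length. Per library, 87.5% to 94.5% of 48 to 56 such values came out within 0.15 of a whole fragment, and depth entered no test. Counting errors cover counting only. The fit was checked on simulated data for recovery of large changes and for few false calls. Recovery of small changes is not reported here. Python 3.11.15, pandas 2.3.3, Biopython 1.88 and matplotlib 3.10.9 did the rest. The genes and lists were chosen with earlier results of these data known. From each list up to 3 called genes were to be named or, failing that, the 2 with the largest change and a mean of at least 10 FPKM. Lists share PCL1 and PCL2, and 1 further list and 1 gene of the mitotic list are not reported here.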

Additional observations from a re-analysis of the deposited data

How the results depend on the processing

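None of the cyclins nor SIC1 was called in the fit reported or in any of the 13 alternatives (limma). In these, 1 of the 10 genes at most had an unadjusted p under 0.05. It was CLB4 with equal FPKM sums (-0.32) and CLN2 without knockout replicate 2 (-0.25). Such p-values were common in those fits, with 1687 and 1989 of all 5712 genes tested, against 1060 in the fit reported. CLB2 and CLB6 did not enter at a minimum of 10 FPKM. Signs turned for CLN3 (-0.079 with equal FPKM sums, -0.00052 with the replicate block, and -0.070 to 0.10 leaving out 1 library), SIC1 (-0.031 with equal sums), CLN1 (-0.015 to 0.21 leaving out 1 library) and CLB1 (-0.043 to 0.30 likewise). The number of genes called over all tested, 15, was 10 at a minimum of 10 FPKM, 8 with equal FPKM sums and 1 with the length trend removed. It ran from 0 to 896 leaving out 1 library, the 896 without knockout replicate 2, and calls in the cell-cycle lists from 0 to 24. Equal FPKM sums moved the median of all genes to -0.16. Libraries with the same replicate number did not deviate alike from their group means (correlation of deviations -0.37 for replicates 1 and -0.43 for replicates 2). With 2 wild-type libraries these deviations mirror each other, so the crossed pairs give 0.37 and 0.43 by construction. With the replicate block 0 genes were called (limma, 399 at an unadjusted p under 0.05). In that fit knockout replicate 3 has no partner and adds nothing to the fold change. The low transcripts CLB6 and CLB2 rested on the fewest estimated fragments of the 10 genes, 136 to 233 and 259 to 314 per library. Counting alone gives errors of 8.57% to 6.56% for CLB6 and 6.21% to 5.64% for CLB2. Their coefficients of variation among the knockout libraries were 18.8% and 8.69%. The part of depth in this spread was not tested, and 2 wild-type libraries limit all intervals.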
